A study of Homo sapiens with 6 samples.

Results

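The 34 genes described here encode the proteins that license replication origins, fire them and lay down the first primers. They were chosen by name, from a fixed list and not by a rule on their expression, but with earlier results of these data known. All 34 were among the 12308 genes of the RNA-seq table, and all 34 were among the 11766 genes that passed the filter on low values and were tested. Transcripts were measured by RNA-seq in total RNA of 2 human ovarian cancer cell lines, OVCAR5 and OVCAR5R, with 3 cultures (replicates) of each. OVCAR5R is the prexasertib-resistant (PrexR) derivative of OVCAR5, obtained by growing OVCAR5 in rising concentrations of the CHK1 inhibitor prexasertib (Prex) to a maximum of 3 µM, kept in 2 µM Prex, and grown free of Prex for 4 days or more before use. Both lines share an RPMI-based medium with serum and insulin, and no introduced allele is named for either. The resistant arm is therefore 1 derived line, whether it is a clone is not given in the sources used here, and the P values below measure the spread between cultures of 2 lines.

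Replication begins with licensing. In G1 phase the origin recognition complex (ORC) binds DNA, CDC6 and CDT1 join it, and together they load the MCM2-7 helicase as an inactive double ring, while geminin later holds CDT1 back so that no origin is licensed again in the same cycle. In S phase the kinase DDK and cyclin-dependent kinases convert loaded MCM2-7 into the active helicase by adding CDC45 and the GINS complex, and DNA polymerase alpha-primase then makes the primers from which the polymerases extend. CHK1, the kinase that Prex inhibits, is known to restrain late origin firing, and the comparison asks how the transcripts of this machinery differ between the resistant line and its parent.

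Many of these genes are textbook targets of the E2F transcription factors, and promoters are shown here for that reason. RefSeq promoter windows of GRCh38.p14, from 250 bases before to 50 bases after a transcript start, were at hand for 28 of the 34 genes. The windows were searched on both strands for the E2F-type octamers TTTCCCGC, TTTCGCGC, TTTGCCGC and TTTGGCGC. At least 1 of these was present in 16 of the 28 genes (57.1%), against 6.88% of the 9023 tested genes that had a window and 3.99% of all 27305 genes of the promoter table. The letters CCAAT, searched on both strands, were present in 60.7% of the 28 genes and in 43.5% of the tested genes. The following stretches lie before a listed start site and outside annotated exons, and capitals mark the matched octamers, which overlap one another in MCM6. They run from MCM6, with most matches, through CDC7, GMNN and POLA1 to the first listed start of PRIM2, which had none. For CDC7 and GMNN the start used is not the first listed, whose window held no match. Their stretches therefore lie inside the annotated gene.
MCM6, chr2:135876444-135876603, minus strand: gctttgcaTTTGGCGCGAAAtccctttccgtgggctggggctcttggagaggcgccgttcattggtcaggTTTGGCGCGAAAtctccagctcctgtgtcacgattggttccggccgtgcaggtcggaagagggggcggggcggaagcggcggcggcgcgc
CDC7, chr1:91500952-91501107, plus strand: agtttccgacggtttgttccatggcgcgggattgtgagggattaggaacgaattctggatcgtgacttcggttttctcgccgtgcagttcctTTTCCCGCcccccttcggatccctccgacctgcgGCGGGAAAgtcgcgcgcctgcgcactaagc
GMNN, chr6:24775253-24775412, plus strand: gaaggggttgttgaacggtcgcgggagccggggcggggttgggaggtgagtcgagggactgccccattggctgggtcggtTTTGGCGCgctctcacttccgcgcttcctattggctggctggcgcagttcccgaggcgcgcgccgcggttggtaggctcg
POLA1, chrX:24693758-24693917, plus strand: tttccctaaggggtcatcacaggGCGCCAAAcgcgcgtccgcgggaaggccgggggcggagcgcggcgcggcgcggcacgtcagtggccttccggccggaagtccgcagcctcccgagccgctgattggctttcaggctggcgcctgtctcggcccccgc
PRIM2, chr6:57314645-57314804, plus strand: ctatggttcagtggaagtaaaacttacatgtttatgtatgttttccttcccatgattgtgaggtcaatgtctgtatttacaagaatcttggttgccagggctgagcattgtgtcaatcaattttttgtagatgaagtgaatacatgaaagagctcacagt
A match is only a description of letters in this window. The 16 genes with a match had a median log2 fold change (OVCAR5R against OVCAR5) of 0.21, with 11 higher in OVCAR5R, and the 12 without a match had a median of 0.28, with 9 higher. CDC45, whose transcript had the lowest fold change of all 34, held no match in any of its 3 listed windows, and WDHD1, with the highest, held none either.

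Expression is given as the deposited normalized value, which is proportional to the estimated reads of a gene and not divided by its length. Depth was 3.58e+07 to 4.13e+07 estimated reads in OVCAR5 and 5.03e+07 to 5.51e+07 in OVCAR5R, and the lowest value of any of the 34 genes, that of ORC5 in OVCAR5 replicate 2, rested on 449 estimated reads, a counting error of 4.72%, and the error from counting alone was smaller for every other value. OVCAR5 replicate 2 stood apart from the other 5 libraries on the first principal component of all genes, at -72.0 against -10.6 to 34.6. The same library differed in its cell type markers. Of the epithelial markers fixed for a carcinoma line, 4 of 5 were in the table and CDH1 was not listed, and their summed value was 2239, 15905 and 2162 in OVCAR5 replicates 1, 2 and 3 and 3106 to 4132 in OVCAR5R. On this sum, most of it KRT8 and KRT18, OVCAR5 replicate 2 was far above all other libraries, and the other parental cultures were below each OVCAR5R culture. KRT19 went the other way, at 9.99, 1341 and 10.7 in OVCAR5 and at 3.09 to 6.04 in OVCAR5R, below every parental culture. EPCAM was at 15.9, 597 and 11.9 in OVCAR5 and at 16.3 to 31.7 in OVCAR5R. Of the mesenchymal markers 3 of 5 were listed, and VIM, which made up most of their sum, was at 1731, 190 and 1063 in OVCAR5 and at 1557 to 2379 in OVCAR5R. The ovarian or Müllerian markers (3 of 5 listed) summed to only 8.70 to 17.5 in OVCAR5 and 5.05 to 7.50 in OVCAR5R, so the labelled origin rests on few transcripts here. Counts over the 34 genes are therefore also given without this library, and the part of its cell type markers in them was not tested. Of the leukocyte markers PTPRC and CD3E were not listed, CD14 was at 3.55 to 20.2 in OVCAR5 and 2.02 to 5.67 in OVCAR5R, and no endothelial marker was listed.

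None of the 34 genes passed the test between the lines, but as a group they sat slightly above the parental level in OVCAR5R, apart from a small set with lower means, of which CDC45, GINS4, MCM5, CDT1 and GINS2 were the lowest. By limma with Benjamini-Hochberg adjustment over all genes, 0 of 34 reached an adjusted P under 0.05, against 14 of 11766 genes (0.119%), and the lowest adjusted P was 0.306, for WDHD1. At an unadjusted P under 0.05 there were 4 (WDHD1, MTBP, PRIM2 and CDC7, all higher in OVCAR5R), against 10.4% of all genes. Limma's voom on the estimated reads called 0 of the 34 and 0 of all genes. It put 8 of the 34 at an unadjusted P under 0.05, against 1204 of the 11766 genes. Of the libraries, OVCAR5 replicate 3 and OVCAR5R replicate 3 decided the count of 4 most. It was 10 without the former, against 14.6% of all genes, and 2 without the latter, against 7.34%. By the mean, 24 of the 34 were higher in OVCAR5R, against 49.2% of all genes, and the median log2 fold change was 0.21, against -0.01 for all genes. In 8 genes, ORC2, CDC6, GMNN, CDC7, MTBP, DONSON, WDHD1 and PRIM2, all 3 OVCAR5R libraries were above all 3 OVCAR5 libraries, against 8.4% of all genes. In 0 of the 34 were all OVCAR5R libraries below, against 8.18% of all genes. With 3 cultures against 3 the 95% interval, which is not adjusted for the number of genes, reached a median of 0.61 on the log2 scale to either side. Differences smaller than that were mostly not detectable. Larger ones also went uncalled after adjustment, such as 0.92 for WDHD1 and -1.14 for CDC45.

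**Figure D1:**
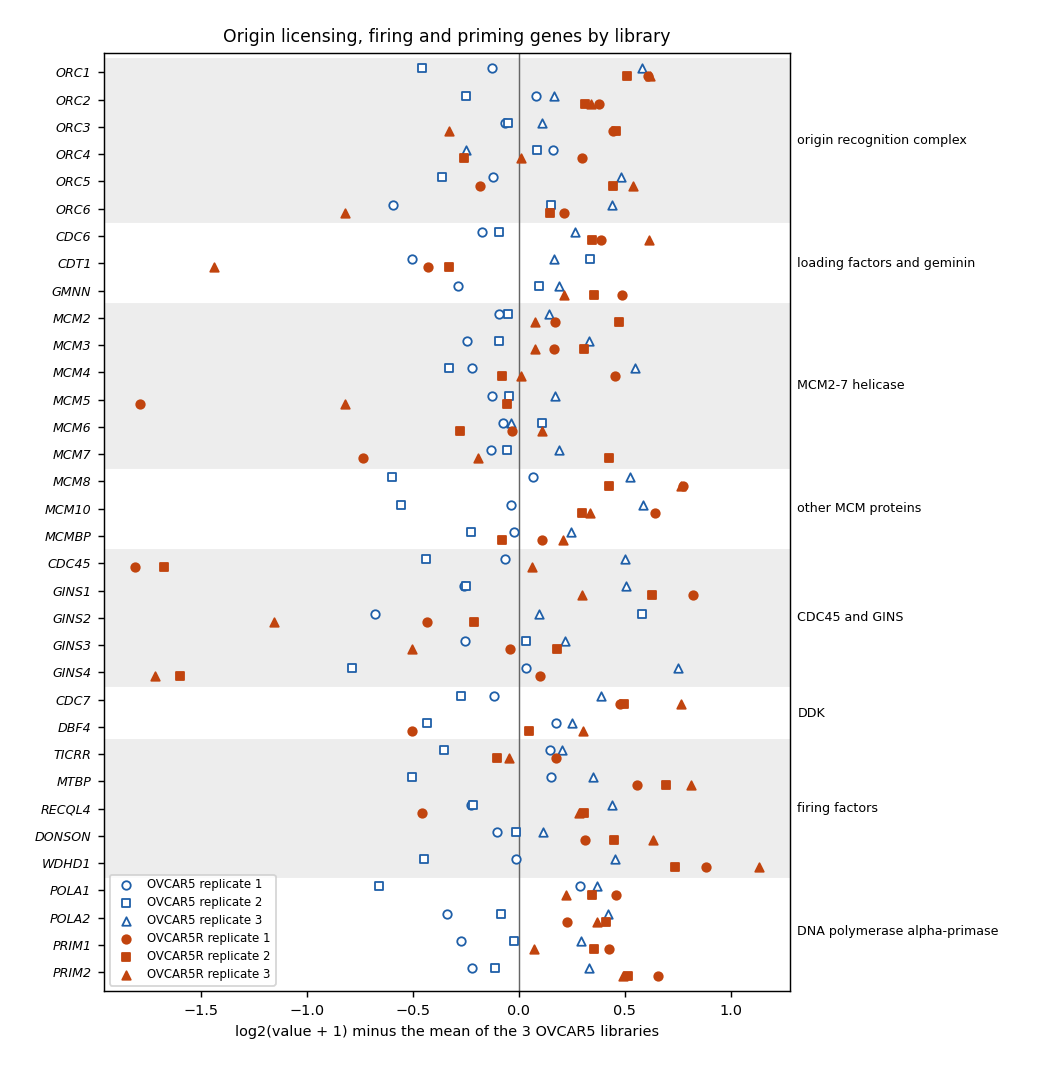
Normalized expression of the 34 genes by library, as log2(value + 1) minus the mean of the 3 OVCAR5 libraries (x axis), 1 row per gene, grouped by role. Open blue symbols are OVCAR5, filled orange symbols OVCAR5R, and circle, square and triangle are replicates 1, 2 and 3. OVCAR5 replicate 3 is the rightmost blue symbol in 30 of 34 rows, and the orange symbols far to the left belong to CDC45, GINS4, MCM5, CDT1 and GINS2.

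The parental cultures differed among themselves in these genes. OVCAR5 replicate 3 was the highest of the 3 OVCAR5 libraries in 30 of the 34 genes, against 31.4% of all genes tested. Relative to the OVCAR5 mean, the 34 genes had a median of -0.12, -0.16 and 0.31 in the OVCAR5 cultures and of 0.26, 0.33 and 0.21 in the OVCAR5R cultures, in the order of replicates 1, 2 and 3, which holds for all values below. On this median, OVCAR5 replicate 3 was as high as the resistant cultures, and the other parental cultures were below it. Without OVCAR5 replicate 3, the group median of the log2 fold change was 0.38, and 17 genes had all OVCAR5R libraries above both remaining OVCAR5 libraries, against 16.8% of all genes. Without OVCAR5 replicate 2, the library that stood apart, 20 genes were higher, the median was 0.11, and 8 genes were above without overlap, against 13.8% of all genes. In both cases 0 of the 34 genes were called. Over all genes 10 were called without OVCAR5 replicate 3 and 29 without OVCAR5 replicate 2. Without OVCAR5 replicate 3, ORC5, MCM10, POLA1, POLA2 and PRIM1 had log2 fold changes of 0.51, 0.72, 0.53, 0.55 and 0.43, over 1.5 times those with it. Without OVCAR5R replicate 3, 12 genes were above and 1 below without overlap, against 12.1% above and 1429 of 11766 below among all genes. The share over all genes thus rose with the loss of a library too. The median SD of the 34 genes on the log2 scale was 0.36 in OVCAR5 and 0.20 in OVCAR5R, against 0.34 and 0.25 for all genes.

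Among the ORC genes, 5 of 6 were higher in OVCAR5R by the mean, with a median log2 fold change of 0.23, and 1 was above without overlap. That one was ORC2, a core subunit, with values of 39.4, 31.2 and 41.9 in OVCAR5 and 48.8, 46.5 and 47.4 in OVCAR5R. ORC1, the subunit whose level changes through the cell cycle and which carries ATPase activity, had values of 19.3, 15.1 and 32.2 in OVCAR5 and 32.8, 30.6 and 33.0 in OVCAR5R. For ORC1 the resistant cultures were tightly grouped, and OVCAR5 replicate 3 lay among them. The fold changes were 0.34 ± 0.20 (log2, SE) for ORC2 and 0.58 ± 0.29 for ORC1, with adjusted P values of 0.588 and 0.524. Without OVCAR5 replicate 2 they were 0.22 and 0.35, and without OVCAR5 replicate 3 that of ORC1 was 0.87. ORC3, ORC4 and ORC5 had fold changes of 0.19, 0.02 and 0.27, with overlapping libraries. ORC6, the smallest and most loosely held subunit, was the only one lower by the mean, at -0.15, and its values were 25.7, 43.8 and 53.7 in OVCAR5 and 45.8, 43.7 and 21.8 in OVCAR5R. The sign of ORC6 was not stable, with a fold change of 0.18 without OVCAR5R replicate 3 and 0.07 without OVCAR5 replicate 3.

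The loading factors and their inhibitor lay on different sides of the parental mean. CDC6, the ATPase that completes the loading complex on ORC, had values of 125, 132 and 169 in OVCAR5 and 185, 179 and 217 in OVCAR5R, without overlap, a log2 fold change of 0.45 ± 0.20 (SE, adjusted P = 0.491). GMNN, which encodes geminin, had values of 32.6, 42.7 and 45.6 in OVCAR5 and 56.4, 51.3 and 46.5 in OVCAR5R. The geminin libraries did not overlap, but OVCAR5R replicate 3 was just above OVCAR5 replicate 3, and the fold change was 0.35 ± 0.21 (adjusted P = 0.598), or 0.21 without OVCAR5 replicate 1. CDT1 (chr16:88803213-88809258, plus strand), which brings MCM2-7 to ORC, had values of 49.5, 89.5 and 79.3 in OVCAR5 and 52.3, 56.0 and 25.4 in OVCAR5R. The CDT1 libraries overlapped because OVCAR5 replicate 1 was below both higher OVCAR5R libraries, and the fold change was -0.73 ± 0.36 (adjusted P = 0.516), or -0.38 without OVCAR5R replicate 3. Taken as a ratio within each library, per kb of transcript, CDT1 to GMNN was 0.592, 0.817 and 0.677 in OVCAR5 and 0.361, 0.425 and 0.213 in OVCAR5R, so that each resistant culture had less CDT1 transcript per geminin transcript than each parental culture.

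The 6 subunits of the MCM2-7 helicase, which form 1 ring with a copy of each, were split evenly, with 3 higher and 3 lower and a median log2 fold change of 0.03. MCM2, MCM3 and MCM4 had fold changes of 0.24, 0.18 and 0.13, and MCM6 and MCM7 had -0.07 and -0.17, all with overlapping libraries. MCM5 (chr22:35400063-35425430, plus strand) was the exception in size. Its values were 255, 270 and 314 in OVCAR5 and 80.1, 268 and 158 in OVCAR5R, a fold change of -0.89 ± 0.40 (SE, adjusted P = 0.489). Without OVCAR5R replicate 1 the fold change of MCM5 was -0.44. The 3 resistant cultures ranged from about the parental level in replicate 2 to the lowest level in replicate 1. MCM7 varied in another order, with 249, 262 and 311 in OVCAR5 and 163, 367 and 239 in OVCAR5R. Per kb of transcript, a scale on which genes can be compared, OVCAR5 held 92.7 ± 11.1 of MCM7, 81.7 ± 29.1 of MCM4, 79.2 ± 8.63 of MCM5, 68.6 ± 14.8 of MCM3, 45.0 ± 4.03 of MCM2 and 41.1 ± 2.85 of MCM6 (mean ± SD, n = 3), and MCM7, MCM4 and MCM5 did not differ beyond their spread, nor did MCM2 and MCM6. In OVCAR5R the MCM5 level was 47.7 ± 26.7 per kb and that of MCM3 77.0 ± 6.27. The ratio of MCM5 to the median of the other 5 subunits was 1.27, 1.22 and 1.04 in OVCAR5 and 0.410, 1.02 and 0.625 in OVCAR5R, with OVCAR5R replicate 2 just below OVCAR5 replicate 3.

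**Figure D2:**
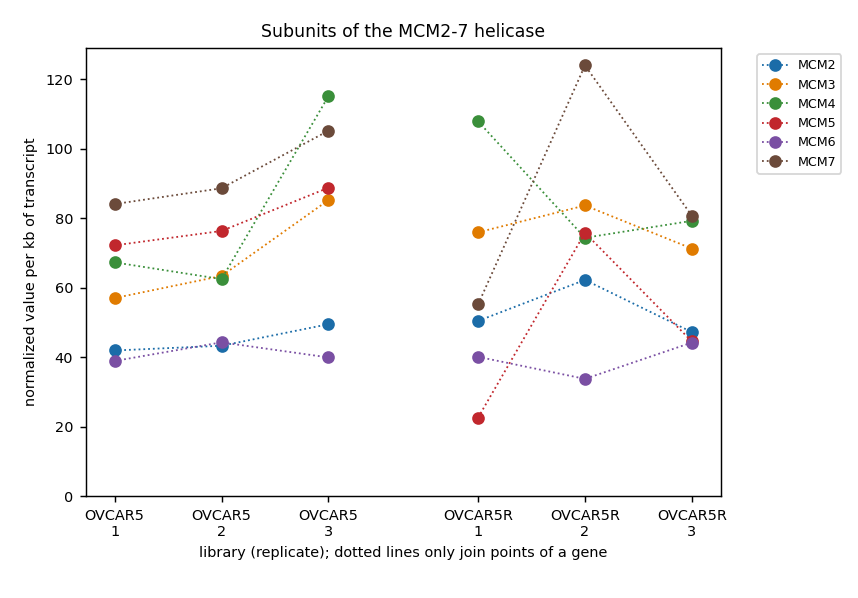
Level of each MCM2-7 subunit transcript in each library, as normalized value per kb of transcript (y axis, linear, from 0), with OVCAR5 libraries at left and OVCAR5R at right; dotted lines only join the points of 1 gene. MCM5 and MCM7 vary most between the resistant cultures, from 22.7 to 75.9 and from 55.2 to 124, while MCM2 and MCM6 stay between 33.8 and 62.3 in all 6 libraries.

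The MCM proteins outside the ring were higher by the mean in all 3 cases. MCM8, a helicase of homologous recombination, had values of 58.6, 36.6 and 80.8 in OVCAR5 and 96.4, 75.3 and 95.7 in OVCAR5R, a log2 fold change of 0.66 ± 0.30 (SE, adjusted P = 0.493), with an overlap only between OVCAR5 replicate 3 and OVCAR5R replicate 2. Without OVCAR5 replicate 2, the library that stood apart, the MCM8 fold change was 0.36. MCM10, needed when the loaded helicase is set in motion, had a fold change of 0.43 ± 0.30, or 0.15 without OVCAR5 replicate 2. MCMBP, a partner of newly made MCM proteins, had 0.08 ± 0.21.

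CDC45 and the 4 GINS subunits form the active helicase with MCM2-7, and this was the only role in which the mean was lower for most genes, 4 of 5, with a median log2 fold change of -0.60. CDC45 (chr22:19479459-19520612, plus strand) had values of 74.97, 57.7 and 112 in OVCAR5 and 21.7, 23.9 and 82.0 in OVCAR5R. Replicates 1 and 2 of the resistant line were below every parental culture, and replicate 3 was between 2 of them. The fold change was -1.14 ± 0.50 (SE, adjusted P = 0.486), with a 95% interval of -2.29 to 0.01. An exact two-sided permutation test of the 3 against 3 libraries gave P = 0.3, where the smallest possible is 0.1. Without OVCAR5R replicate 3 the fold change was -1.74 (adjusted P = 0.266), and without OVCAR5R replicate 1 it was -0.81 (adjusted P = 0.788).

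GINS4 had values of 63.1, 35.3 and 104 in OVCAR5 and 66.2, 19.7 and 18.0 in OVCAR5R, a log2 fold change of -1.07 ± 0.55 (adjusted P = 0.537). Here it was replicate 1 of the resistant line that kept a parental level and replicates 2 and 3 that were low, a pattern unlike that of CDC45. The GINS4 fold change was -1.66 without OVCAR5R replicate 1 and -0.70 without OVCAR5 replicate 3. GINS2 had values of 28.6, 69.7 and 49.5 in OVCAR5 and 34.1, 39.9 and 20.3 in OVCAR5R, with a fold change of -0.60 ± 0.37, which was -0.32 without OVCAR5R replicate 3, -0.31 without OVCAR5 replicate 2 and -0.94 without OVCAR5 replicate 1. GINS3 had a fold change of -0.12 ± 0.26, and its sign was not stable, at 0.07 without OVCAR5R replicate 3. GINS1 was the one GINS gene that was higher, with values of 41.4, 41.5 and 70.8 in OVCAR5 and 88.5, 77.3 and 61.2 in OVCAR5R and a fold change of 0.58 ± 0.27 (adjusted P = 0.500). The 4 subunits stand in the complex at 1 copy each, yet GINS1 lay on the other side of the parental mean from GINS2 and GINS4. Per kb, GINS1 to GINS2 was 1.19, 0.490 and 1.18 in OVCAR5 and 2.14, 1.59 and 2.49 in OVCAR5R, without overlap. CDC45 to the mean of GINS1 and GINS2 was 3.06, 1.42 and 2.65 in OVCAR5 and 0.519, 0.590 and 2.97 in OVCAR5R, where replicate 3 of the resistant line was within the parental range.

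DDK consists of the kinase CDC7 and its activator DBF4, and it phosphorylates loaded MCM2-7. CDC7 (chr1:91500893-91525764, plus strand) had values of 20.1, 18.0 and 29.04 in OVCAR5 and 31.0, 31.4 and 38.0 in OVCAR5R, without overlap. Its log2 fold change was 0.58 ± 0.24 (SE, unadjusted P = 0.0430, adjusted P = 0.460 by limma). DBF4 had values of 44.4, 28.8 and 46.9 in OVCAR5 and 27.4, 40.5 and 48.5 in OVCAR5R, a fold change of -0.05 ± 0.29. The ratio of CDC7 to DBF4 per kb was 0.535, 0.736 and 0.730 in OVCAR5 and 1.33, 0.913 and 0.924 in OVCAR5R. Each resistant culture thus had more CDC7 per DBF4 transcript than each parental culture, most of all replicate 1, where DBF4 was lowest.

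The factors that help assemble the active helicase were higher by the mean in 5 of 5 cases, with a median log2 fold change of 0.47, and 3 of them did not overlap. WDHD1 (chr14:54938950-55027105, minus strand), the human AND-1 protein that ties polymerase alpha to the helicase, had the highest fold change of the 34. Its values were 64.2, 47.2 and 88.9 in OVCAR5 and 120, 108 and 143 in OVCAR5R, a fold change of 0.92 ± 0.26 (SE, unadjusted P = 0.00823, adjusted P = 0.306 by limma). MTBP, the partner of TICRR (treslin) in CDC45 loading, had values of 25.3, 15.7 and 29.2 in OVCAR5 and 33.9, 37.4 and 40.6 in OVCAR5R, a fold change of 0.69 ± 0.26 (unadjusted P = 0.0309, adjusted P = 0.427 by limma), or 0.44 without OVCAR5 replicate 2. TICRR itself was at 37.3 ± 7.61 in OVCAR5 and 37.1 ± 3.94 in OVCAR5R (mean ± SD, n = 3), a fold change of 0.01. So the 2 partners differed, MTBP without overlap and TICRR with nearly equal means. DONSON, which acts in the delivery of GINS to the helicase, had values of 19.1, 20.4 and 22.3 in OVCAR5 and 25.8, 28.5 and 32.5 in OVCAR5R, a fold change of 0.47 ± 0.20 (adjusted P = 0.487). RECQL4, a helicase that is needed for origin firing, had a fold change of 0.05 ± 0.29.

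All 4 genes of DNA polymerase alpha-primase were higher by the mean, with log2 fold changes from 0.29 to 0.56. PRIM2, the large primase subunit, had values of 23.7, 25.7 and 35.3 in OVCAR5 and 44.5, 40.3 and 39.6 in OVCAR5R, without overlap, and a fold change of 0.56 ± 0.22 (SE, unadjusted P = 0.0353, adjusted P = 0.443 by limma). Part of PRIM2 has a near-identical duplicate in the genome, and reads may have been divided between the copies, so its level is uncertain. PRIM1, the catalytic primase subunit, had a fold change of 0.29 ± 0.23, the catalytic polymerase POLA1 had 0.34 ± 0.30, and the accessory subunit POLA2 had 0.34 ± 0.24, each with overlapping libraries. For POLA1 a single parental culture was low, at 18.5 in OVCAR5 replicate 2 against 36.7 and 38.8 in the others and 35.0 to 41.3 in OVCAR5R, and without that culture the fold change was 0.01. Without OVCAR5 replicate 1 the fold changes of POLA2 and PRIM1 were 0.17 and 0.15. The ratio of PRIM2 to PRIM1 per kb was 0.693, 0.624 and 0.685 in OVCAR5 and 0.784, 0.748 and 0.899 in OVCAR5R. Exons of POLA2 and PRIM1 overlap those of another annotated gene on the same strand over 53.7% and 26.0% of their length. Those of MCM2, GINS4 and GINS3 overlap a gene on the opposite strand over 30.7%, 21.2% and 16.5%. Reads of such pairs may not have been told apart, since the sources used here do not say whether strand was used in counting.

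**Figure D3:**
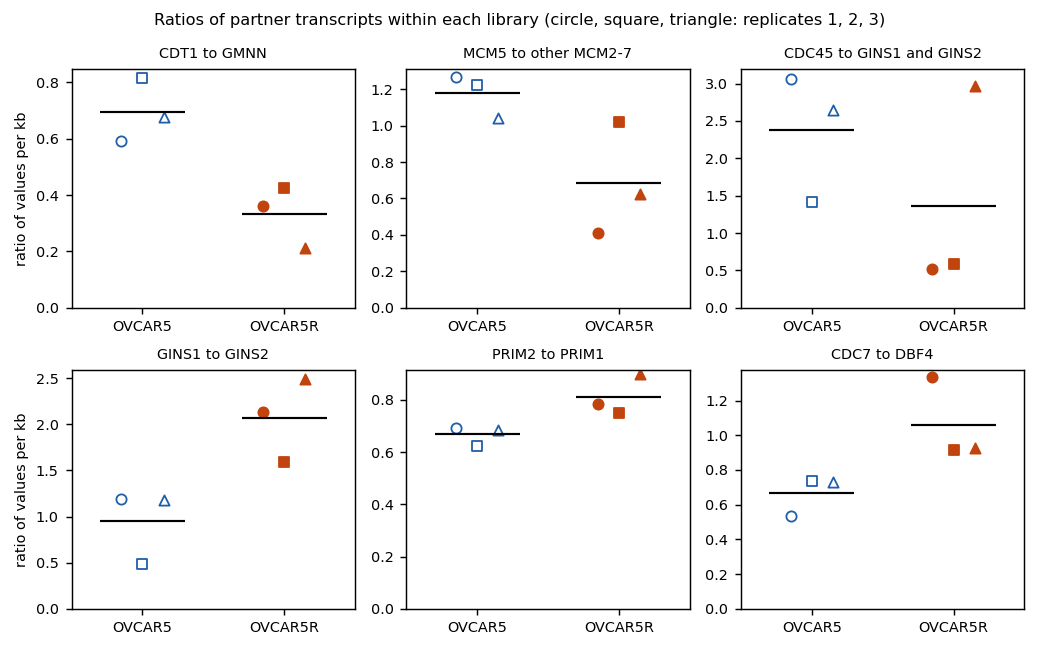
Ratios of partner transcripts within each library, each from values per kb of transcript (y axes, linear, from 0). Circle, square and triangle are replicates 1, 2 and 3, open for OVCAR5 and filled for OVCAR5R, and the bar is the mean of the 3 libraries. The OVCAR5R points do not overlap the OVCAR5 points in 5 of the 6 panels and overlap them for CDC45 to GINS1 and GINS2.

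The 6 ratios were chosen after the values of their genes had been seen and are a description with no test. The reading of a ratio does not depend on the scaling of a library, since both transcripts come from the same library. In RNA from a whole culture, fewer cells in a phase of the cycle and less RNA per cell cannot be told apart.

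The fold changes went along with the place of a gene in the genome. For each gene, the neighbourhood was taken as all other tested genes that start within 10 Mb on the same chromosome, 23 to 262 genes, and its level as the median of their log2 fold changes. Across the 34 genes, the fold change of a gene and the median of its neighbours had a Pearson r of 0.82 (Spearman rho 0.82), and 26 of 34 had the same sign. This is a correlation across genes that share the same 6 libraries, and some share neighbours, such as CDT1 and GINS2 on 16q, CDC45 and MCM5 on the long arm of chromosome 22, and ORC5 and MCM7 on 7q. Across the 11668 tested genes that had at least 15 neighbours, r was 0.32 and the sign was the same in 63.0%. With windows of 5 Mb or 20 Mb, r for the 34 genes was 0.84 or 0.81.

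**Figure D4:**
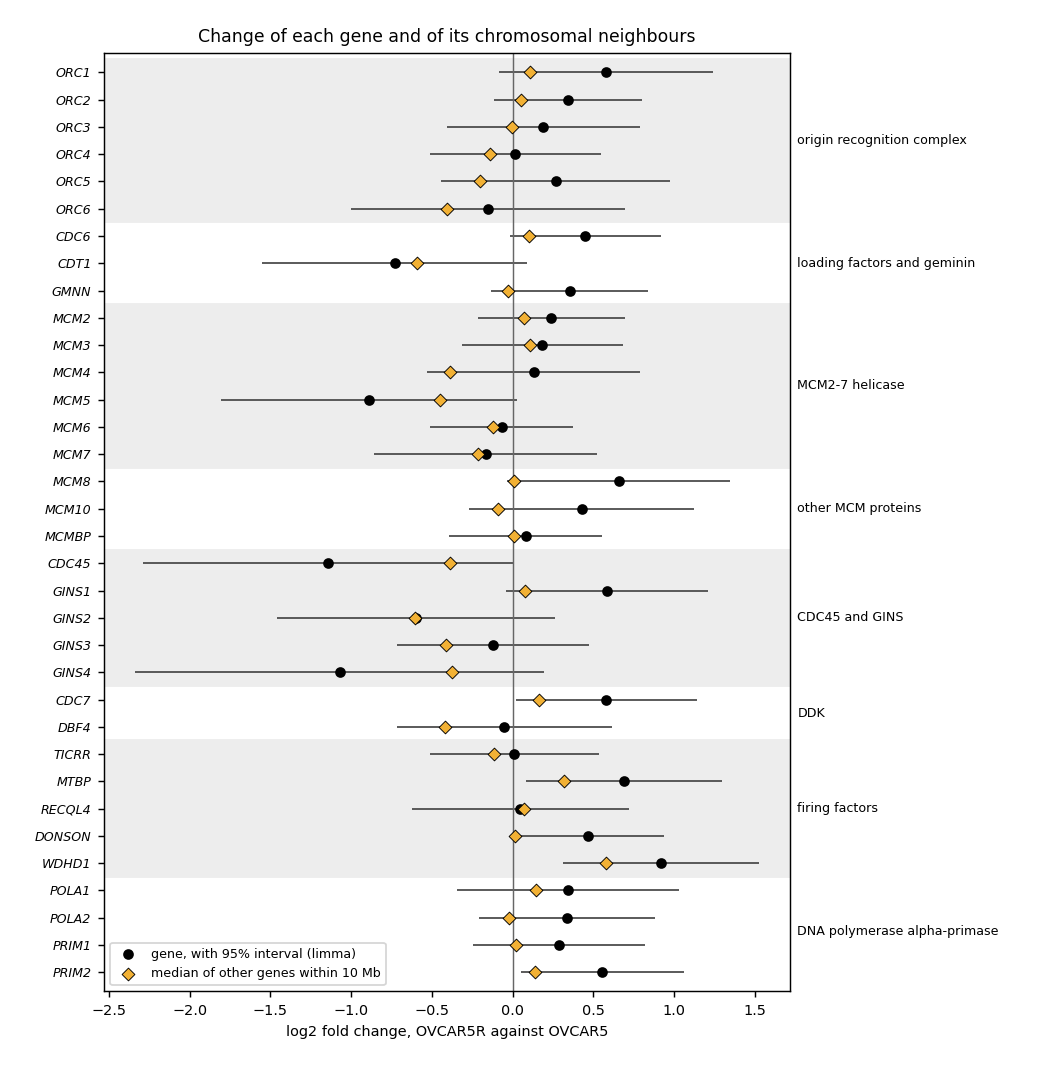
Log2 fold change, OVCAR5R against OVCAR5 (x axis), of each of the 34 genes (black circle, with its 95% interval from limma) and the median of the other tested genes within 10 Mb (orange diamond). The diamonds lie left of 0 for the genes with the lowest fold changes, between -0.38 and -0.60 for CDC45, GINS4, MCM5, CDT1 and GINS2, and the black circle is right of its diamond in 29 of 34 rows.

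In 9 genes (ORC6, CDT1, MCM4, MCM5, CDC45, GINS2, GINS3, GINS4 and DBF4) the median of the neighbours was under -0.3. Of these, 8 were lower in OVCAR5R by the mean, with a median of -0.60, and the exception was MCM4. Of the other 25, 23 were higher, with a median of 0.34, and they held all 8 genes without overlap. The lower genes of this set were MCM6 and MCM7. CDT1 and GINS2, which lie within 10 Mb of each other, had neighbour medians of -0.59 and -0.60, almost equal to the fold change of GINS2 itself. The neighbours of CDC45 and MCM5 had medians of -0.39 and -0.45, smaller in size than the fold changes of -1.14 and -0.89 of the genes themselves. At the other end, WDHD1, the highest of the 34, also had the highest neighbour median, 0.58. Taken relative to their neighbours, 29 of the 34 genes were higher in OVCAR5R, with a median difference of 0.28, where all genes had a median of about 0.

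The link between a gene and its neighbours could also be followed across the 3 resistant cultures. Relative to the OVCAR5 mean, CDC45 was at -1.81, -1.68 and 0.06 in OVCAR5R replicates 1, 2 and 3, and its neighbours were at -0.77, -0.55 and 0.03. GINS4 was at 0.10, -1.60 and -1.72, and its neighbours were at -0.05, -0.70 and -0.52. In both genes the cultures with a low value were those with low neighbours, and the culture with a parental value had neighbours near 0. The same held on 16q, where replicate 3 was lowest. CDT1 was at -0.43, -0.33 and -1.44, with neighbours at -0.35, -0.43 and -1.02, and GINS2 at -0.43, -0.21 and -1.15, with nearly the same neighbours. ORC6, nearer the centromere of chromosome 16, was at 0.22, 0.15 and -0.82, with neighbours at -0.11, 0.01 and -1.01.

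On chromosome 7 it was replicate 1 that was lowest. MCM7 was at -0.74, 0.43 and -0.19, with neighbours at -0.82, 0.04 and 0.02. ORC5 was at -0.18, 0.45 and 0.54, with neighbours at -0.81, 0.08 and -0.01, and DBF4 at -0.50, 0.05 and 0.30, with neighbours at -0.87, -0.29 and 0.06. Thus the genes on chromosome 16 were lowest in 1 culture and those on chromosome 7 in another. Some partners on different chromosomes, MCM7 and MCM4 or CDC45 and GINS4, were lowest in different resistant cultures. Others were lowest in the same one, GINS1, GINS2, GINS3 and GINS4 in replicate 3 and MCM5 and MCM7 in replicate 1. MCM5 was only partly like its neighbours, at -1.79, -0.06 and -0.82 against -0.76, -0.58 and -0.11. MCM4 was higher than its neighbours in each culture, at 0.46, -0.08 and 0.01 against -0.04, -0.72 and -0.67. Its differences between the cultures were close to theirs, at 0.33, -0.21 and -0.12 from the mean of the resistant line against 0.37, -0.26 and -0.19. WDHD1 was high in all 3 cultures, at 0.89, 0.74 and 1.14, as were its neighbours, at 0.62, 0.48 and 0.68.

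Over the 34 genes and 3 cultures of OVCAR5R (102 points), the difference of a gene from the mean of the resistant line and that of its neighbours had a Pearson r of 0.79. In 21 of 21 points where the neighbours differed from the mean of the line by more than 0.3, the gene differed in the same direction. For all tested genes r was 0.44 and the share with the same direction 92.1%. Within OVCAR5 r was 0.49 for the 34 genes, with 3 of 3 such points in the same direction, and 0.22 and 80.0% for all genes. Points of 1 library or 1 chromosome arm are not independent, and these correlations carry no test. The part of chromosomal position in the difference between the lines was not tested.

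**Figure D5:**
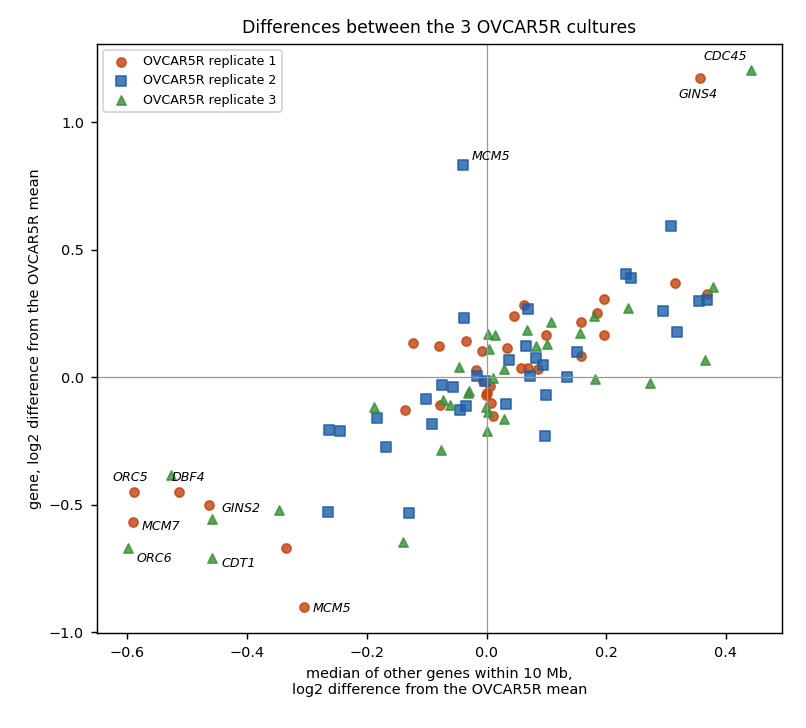
Differences between the 3 OVCAR5R cultures: for each of the 34 genes in each culture, the log2 difference from the mean of the resistant line (y axis) against the same for the median of the other genes within 10 Mb (x axis). Colours and symbols are the cultures, and the 21 points beyond 0.3 on the x axis in either direction all have the same sign on both axes.

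The per-kb levels of the other genes gave their order in the parental line. Of the 34, MCM7 had the highest level in OVCAR5 and TICRR the lowest, at 5.50 ± 1.12 (mean ± SD, n = 3). ORC4 at 5.54 ± 0.82, POLA1 at 5.71 ± 2.03, CDC7 at 6.76 ± 1.77 and ORC1 at 7.04 ± 2.81 were not distinguishable from TICRR beyond their spread. Nor were MTBP at 7.66 ± 2.27, MCM8 at 7.84 ± 2.96, MCM10 at 8.90 ± 3.61 and ORC5 at 8.98 ± 2.98. ORC6 was the most abundant ORC transcript, at 25.2 ± 8.73, and geminin was at 31.9 ± 5.43 against 22.5 ± 6.42 for CDT1, with overlapping libraries. In OVCAR5R geminin was at 40.7 ± 3.92 and CDT1 at 13.8 ± 5.16, without overlap.

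Genes that work next to these were examined as lists, to give the level of replication transcripts as a whole. Of 38 genes of the replication fork and of elongation, 27 were higher by the mean, with a median log2 fold change of 0.25. The highest was DSCC1, a subunit of an alternative clamp loader, at 0.91, and the lowest was POLD4, the smallest subunit of polymerase delta, at -0.58. Of 25 other genes of origin regulation, 18 were higher, with a median of 0.24, from LRR1, which takes part in unloading the helicase, at 0.82 to RBX1, a ubiquitin ligase subunit, at -0.67. In each list 0 genes passed an adjusted P under 0.05. At an unadjusted P under 0.05 there were 4 of 38 and 3 of 25, close to the 10.4% of all genes. The medians of both lists were close to that of the 34 genes.

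Markers of the cell cycle phases were also mostly higher by the mean in OVCAR5R. Of 33 S phase markers that are not among the 34 genes, 29 were higher in OVCAR5R by the mean, with a median of 0.32. They ran from DSCC1 at 0.91 to RFC2, a clamp loader subunit, at -0.20. Of these markers 5 had an unadjusted P under 0.05, against 10.4% of all genes. Several of them, such as DSCC1, RFC2, PCNA and DTL, are also in the lists of fork or origin regulation genes above, so the lists are not independent. Of 54 G2/M markers, 44 were higher, with a median of 0.26, from DLGAP5, a spindle protein, at 0.83 to CBX5, a heterochromatin protein, at -0.76. Of the 54, 3 had an unadjusted P under 0.05, against 10.4% of all genes. TOP2A is in this list and in that of fork and elongation genes. In both lists 0 passed the adjusted threshold. By library the S phase markers had medians of -0.05, -0.30 and 0.30 in OVCAR5 and 0.40, 0.17 and 0.36 in OVCAR5R relative to the OVCAR5 mean, so OVCAR5 replicate 3 was again the highest parental culture. The part of the cell cycle distribution of the cultures in the values of the 34 genes was not tested.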

How the data were processed

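Total RNA of 3 OVCAR5 and 3 OVCAR5R cultures was sequenced, and the authors deposited 1 table of 12309 rows by gene symbol, of which 1 identical copy was dropped. The deposited signal is linear, never negative and, per the supplementary methods, quartile normalized. The labels name hg38, and the aligner, counter and strand setting are not given in the sources used here. Within a library the values are multiples of a hundredth of an estimated read, and 61.7% to 65.8% are whole reads (tolerance 0.005 read), so no test for counts was used. The design had named such a test only for raw counts.

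Genes that reached 1 in no fewer than 3 of 6 libraries were tested on log2(value + 1), which understates the change of low genes, by limma 3.58.1 in R 4.3.3 (lmFit, eBayes with trend, no covariates, two-sided) with Benjamini-Hochberg adjustment over 11766 genes at 0.05. Replicate numbers share only a number. Positions and transcript lengths are from GENCODE 29 on GRCh38, matched by symbol for 99.4% of the symbols, and promoters from RefSeq GRCh38.p14. The length is that of the longest transcript marked as principal or, where none is marked, of the longest coding transcript. Levels per kb depend on this choice. The fits were tested on simulated data. Figures were drawn with matplotlib 3.10.9.

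The 34 genes, the other lists and the tests were chosen with earlier results of these data known. Every one of the 34 genes is reported, and from each replication and cell cycle list the called genes and the highest and lowest, while cell type markers are given by their sums and by those that set them. The neighbourhoods, the ratios, the limit of -0.3 and the promoter comparison were added after values had been seen. Alternatives were another pseudocount, filter, normalization, eBayes setting, voom, a replicate block, and leaving out each library.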

Additional observations from a re-analysis of the deposited data

How the results depend on the processing

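In 15 alternatives 0 of the 34 genes passed the threshold, and CDC45 stayed lower in each. The sign changed in 21 of 495 values of single genes, in 10 genes that were all close to 0. Leaving out 1 library at a time, the log2 fold change ranged from -0.12 to 0.15 for ORC4, -0.45 to 0.18 for ORC6, -0.034 to 0.41 for MCM4, -0.15 to 0.039 for MCM6, -0.46 to 0.12 for MCM7, -0.033 to 0.20 for MCMBP, -0.27 to 0.070 for GINS3, -0.27 to 0.17 for DBF4, -0.17 to 0.11 for TICRR and -0.084 to 0.30 for RECQL4. DBF4 was at 0.0035 after quantile normalization and 0.0075 by voom.

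Of the 34 genes, 8 to 17 showed no overlap, above or below, when 1 library was left out. Over all 11766 genes, those above rose from 988 to between 1427 and 1981. Those below rose from 962 to between 1426 and 1932. Without OVCAR5 replicate 2 the 34 genes held 8 above and 0 below, against 1618 above and 1610 below over all genes. The genes called over the whole table numbered 14, and 8 with a value of at least 5 in all libraries, 0 by voom (1204 at an unadjusted P under 0.05), 5 with a replicate block, and 0 (without OVCAR5R replicate 3, with 864 at an unadjusted P under 0.05) to 29 (without OVCAR5 replicate 2) when 1 library was left out, and the cause was not tested. The 34 genes held 2 to 10 at an unadjusted P under 0.05 when 1 library was left out, and all genes 864 to 1714. The 34 genes held 6 with the block or the stricter filter, and 8 with voom, quantile normalization or a rescaled 75th percentile. The main fit had 4 of the 34, and 10.4% of the 11766 genes. Over all genes there were 1305 with the block, 1253 with the rescaled percentile and 978 with the stricter filter, which tested fewer genes. Voom gave 1204, and quantile normalization gave a count between those of the rescaled percentile and the block. The block changed no call among the 34 genes. Same-numbered cultures correlated in their deviations from the line means at -0.004, 0.18 and -0.12, and differently numbered ones at -0.19 to 0.25. With 3 cultures per line such values cannot decide whether same-numbered cultures were handled together. With 3 cultures per line the spread between cultures, more than depth, limits what can be detected.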
